A study of Mus musculus with 2 samples.

Results

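The ubiquitin-specific proteases are the largest family of mouse deubiquitinases, and their genes were examined in a list of chromatin sites immunoprecipitated with an antibody against Usp16, a member of the same family. Members were all protein-coding genes of the RefSeq annotation of GRCm38 whose symbol starts with Usp followed by a digit, which gave 56 of 21887 protein-coding genes on the assembled chromosomes. Of these, 5 are near-identical Usp17l copies, and Usp6nl shares the name although its product is a Rab GTPase-activating protein and not a protease. The anti-Usp16 library and an IgG library were each made from c-Kit and Sca-1 positive cells, a fraction of mouse bone marrow that is enriched for blood stem and progenitor cells. The mice of both libraries carried loxP-flanked Usp16 alleles and Mx1-Cre, a recombinase under an interferon-inducible promoter that is not specific to blood cells, and the labels do not say whether it had been induced. Whether the cells still held Usp16 is therefore unknown. There was 1 library per antibody and no replicate, and the labels give neither the age nor the number of the mice.

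The deposited data were 1 list of 5079 peaks, of which 5046 lay on the assembled chromosomes and entered the comparison with genes. Each peak has a position and a score, the authors' value from the MACS peak caller. The scores had a median of 70.1, and no peak below 50 was listed. With 1 library there was no spread between replicates to test against, so every count and share below describes this list. Intervals are exact Clopper-Pearson 95% intervals and cover counting error only. The IgG signal was not analysed here and the read depth is unknown, so a gene without a peak was not shown to be unbound. The list holds no expression values, so the identity of the sorted cells could not be checked against markers.

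Deubiquitinases cut ubiquitin from proteins and so oppose the ligases that attach it. Ubiquitin on histone H2A is placed mainly by Polycomb complexes and is linked to gene repression, and several ubiquitin-specific proteases, Usp16 among them, can remove it. In mouse bone marrow Usp16 is known to be needed for blood stem cells to mature, and Usp3 to preserve the stem cell pool. Other members of the family act on free ubiquitin chains, on endosomes and mitochondria, in splicing and in DNA repair.

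Gene-end peaks are those that reach by at least 1 bp into the stretch from 1 kb before to 1 kb after either annotated end of a gene. Such a peak was listed for 12 of the 56 Usp genes (21.4%, interval 11.6 to 34.4%), against 13.9% of all protein-coding genes (3033 of 21887). The interval of the family includes the share of all genes. A further 3 Usp genes, Usp29, Usp37 and Usp54, held a peak only inside the gene. This brought the count to 15 of 56 (26.8%), against 17.9% of all protein-coding genes (3918). Median gene length was 48.0 kb in the family, against 17.2 kb over all protein-coding genes, and its part in this count was not tested. No Usp gene carried more than 1 peak. Over all protein-coding genes, 61 of the 3033 with a gene-end peak carried more than 1 such peak. All 12 gene-end peaks of the family lay directly over the annotated end, a share not counted over all protein-coding genes. The midpoint farthest from its gene end was 0.531 kb away, at Usp21, so the edge of the window decided no member. Just outside the window stood Usp33, with a peak 2.72 kb beyond the gene, and Usp54, whose peak midpoint lay 3.44 kb inside.

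**Figure D1:**
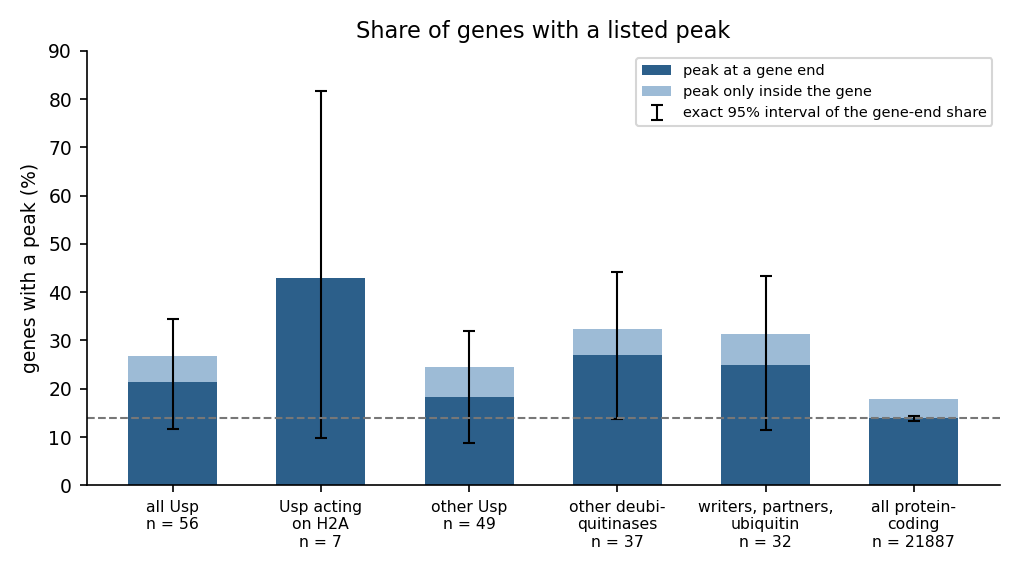
Share of genes with a listed peak (vertical axis, %) for all Usp genes, the Usp genes acting on H2A, the other Usp genes, other deubiquitinase genes, the list of H2A ubiquitin writers, partners and ubiquitin genes, and all protein-coding genes. The other deubiquitinase genes include Uspl1 and Cops5, genes of related proteases. Dark bars count peaks at a gene end and light bars peaks only inside the gene. Error lines are exact 95% intervals of the gene-end share and the dashed line is the 13.9% of all protein-coding genes. The interval of all Usp genes, 11.6 to 34.4%, spans the dashed line.

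Of the enzymes with reported activity on H2A, 3 of 7 carried a gene-end peak (42.9%, interval 9.90 to 81.6%), against 13.9% of all protein-coding genes. They were Usp3, Usp12 and Usp21, and Usp16, Usp22, Usp44 and Usp46 carried none. The peak at Usp21 lay at the far end of the gene and was shared with Ppox. For the other 49 Usp genes the count was 9 (18.4%, interval 8.76 to 32.0%). With 7 genes the interval is too wide to set the H2A enzymes apart from the rest of the family or from all genes.

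Usp16 itself (chromosome 16, 87454985 to 87483515, plus strand) held no peak at either end or inside. The nearest peak lay 12.1 kb beyond the gene (87495630 to 87496380, score 165), over an end of the neighbouring gene Cct8, which encodes a subunit of the cytosolic chaperonin. Usp45, a close relative of Usp16, had none either, and its nearest peak was 9.43 kb away at an end of Pnisr. The list thus held no site at the gene of the protein that the antibody is directed against.

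Usp3, which removes ubiquitin from H2A and is linked to the DNA damage response, carried a peak of score 125 (chromosome 9, 66592699 to 66593453) over its start. The listed start of transcription, taken from a RefSeq promoter table, lay 39 bp from the peak midpoint, on the upstream side of it. Of the 2466 peaks at ends of protein-coding genes, 82.3% scored lower.

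Usp21, an H2A enzyme described in mouse liver as an activator of transcription, had the highest score of the H2A group, 168 (chromosome 1, 171280842 to 171281995), above 93.0% of gene-end peaks. This peak did not lie at the start of Usp21, which is 6.0 kb long. It covered the far end of the gene, and its midpoint was 6.54 kb downstream of the listed start of Usp21. The same peak reached Ppox, a haem biosynthesis gene, with its midpoint 232.5 bp upstream of the listed start of that gene. The peak cannot be assigned to Usp21 rather than Ppox from the list.

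Usp12 and Usp46 are close relatives that act with the cofactor Wdr48 and were described as H2A and H2B enzymes in Xenopus. Usp12 carried a peak of score 77.7 (chromosome 5, 146794906 to 146795468), whose midpoint lay 231 bp upstream of its listed start and which also reached the lncRNA gene 1700041I07Rik. For Usp46 no peak was listed, and the nearest was 24.2 kb away with a score of 53.8. Usp22, the H2A and H2B enzyme of the SAGA coactivator complex, and Usp44, which acts on H2B and in the mitotic checkpoint, were 18.3 and 30.0 kb from their nearest peaks. The relatives of Usp22 on chromosome X, Usp27x and Usp51, had no peak within 45.1 and 669 kb.

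**Figure D2:**
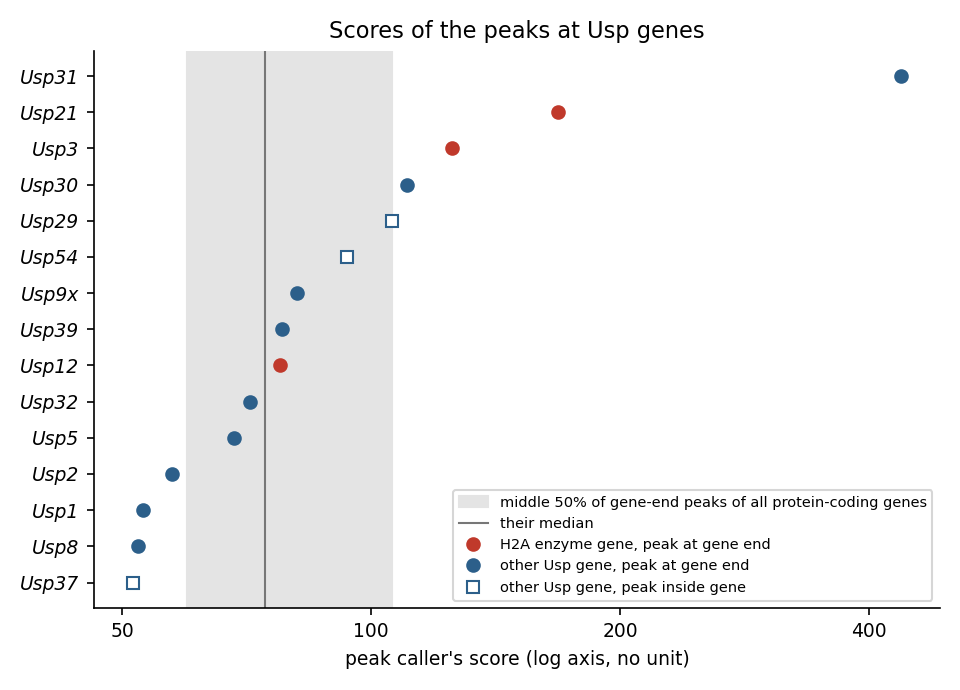
Score of each of the 15 peaks at Usp genes (horizontal axis, log scale, no unit). Filled circles are gene-end peaks, open squares are peaks inside a gene, and red marks the H2A enzymes. The grey band spans the quartiles of all 2466 gene-end peaks of protein-coding genes, 59.9 to 106, and the line their median of 74.4. Usp31 stands at 437, Usp21, Usp3 and Usp30 also lie above the band, and Usp37, Usp8, Usp1 and Usp2 lie below it.

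Among the other members Usp31, reported in human cells to restrain NF-κB signalling, had the highest score in the family, 437, which ranked 37 among the 5046 peaks. It was also the narrowest of the family's gene-end peaks at 402 bp. Its midpoint lay 114.5 bp upstream of the listed start (chromosome 7, 121707442, minus strand). Its relative Usp43 had no peak within 44.0 kb.

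Usp30, Usp8 and Usp32 act at membranes and organelles, and their peak scores ran from 52.2 to 110.5. Usp30, which sits in the outer mitochondrial membrane and counteracts the removal of damaged mitochondria, had a peak of score 110.5 (chromosome 5, 114099964 to 114100552), 75 bp upstream of its listed start by the midpoint. Usp8, which acts on endosomal receptors, had 1 of score 52.2 (chromosome 2, 126706831 to 126707687), 69 bp upstream, and 8.3% of all peaks scored lower. Usp32, which in human cells acts on the endosomal GTPase Rab7, had 1 of score 71.4 (chromosome 11, 85139476 to 85140613), 89.5 bp upstream, and the peak also reached an annotated end of 1700125H20Rik. Although these 3 scores differed, each peak covered the listed start of its gene.

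Usp39, a splicing factor of the tri-snRNP that lacks protease activity, carried a peak of score 78.0 over its upper end (chromosome 6, 72344964 to 72345537). Usp5, which takes apart unanchored ubiquitin chains, carried 1 of 68.4 over its upper end (chromosome 6, 124828615 to 124829539), shared with the cell division gene Cdca3. Its relative Usp13 carried none. Usp1, which removes ubiquitin from the repair proteins FANCD2 and PCNA, carried 1 of 53.0 over its lower end (chromosome 4, 98922974 to 98924046). These scores lay near or below the median of gene-end peaks, 74.4.

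On the sex chromosomes 1 of 6 Usp genes carried a peak. This was Usp9x, an enzyme needed for embryonic development, with a score of 81.4 over its lower end (chromosome X, 13070272 to 13071602) and the widest gene-end peak of the family at 1331 bp. Its Y-linked relative Usp9y had no peak within 2577 kb. Over all protein-coding genes on X and Y the share with a gene-end peak was 2.95% (36 of 1222).

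Usp2, which has roles in the circadian clock and in human cells stabilises MDM2 and cyclin D1, carried a peak of score 57.4 over the outermost annotated base of the gene on its upstream side (chromosome 9, 44066687 to 44067341). The promoter table lists 1 start for Usp2, and it lay 17.9 kb downstream of this peak, with no peak near it. The Usp2 peak also reached the lncRNA gene Gm39325.

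The 3 peaks inside genes differed in position. The peak in Usp37, which in human cells acts on cyclin A, had the lowest score of the family, 51.5 (chromosome 1, 74505938 to 74506964). Its midpoint was 37.8 kb from the nearer annotated end but only 630 bp upstream of the listed start. The peak also reached an end of Cnot9, a subunit gene of the CCR4-NOT deadenylase complex. Its midpoint lay 391 bp from the listed start of Cnot9, so the peak cannot be assigned to Usp37 rather than Cnot9 from the list. In Usp29, an imprinted gene beside Peg3, the peak of score 106 lay 14.1 kb downstream of the listed start (chromosome 7, 6744341 to 6745055). In Usp54 the peak of score 93.5 lay 22.7 kb upstream of the listed start and 3.44 kb from the outer end (chromosome 14, 20640548 to 20641555).

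The scores and widths of the family stood close to those of other genes. The 12 gene-end peaks had a median score of 77.8 (52.2 to 437) and a median width of 806 bp (402 to 1331), against a median score of 74.4 (50 to 582) and a median width of 788.5 bp for the 2466 gene-end peaks of all protein-coding genes. Of the 12, 7 scored above that median. A gene-end peak at or above the median of the whole list, 70.1, was carried by 8 Usp genes (14.3%), against 7.99% of all protein-coding genes. The 4 members lost at this level were Usp1, Usp2, Usp5 and Usp8. A peak shared with the end of another protein-coding gene accounted for 3 of the 12 (25%, at Usp5, Usp21 and Usp32), against 24.9% (614 of 2466) over all protein-coding genes.

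Strand and listed starts were available for 43 of the 56 genes. A peak lay within 1 kb of a listed start in 7 of these 43 (16.3%), against 14.2% of protein-coding genes with a listed start (2483 of 17492). These were Usp3, Usp8, Usp12, Usp30, Usp31, Usp32 and Usp37. Of the 5 H2A enzyme genes with a listed start, 2 had such a peak, Usp3 and Usp12. The peak midpoint was upstream of the start in 6 of the 7 and downstream in Usp3. Over all protein-coding genes it was upstream in 1625 of 2495 such pairs of gene and peak (65.1%). The median offset was -89.5 bp in the family, against -59.5 bp over all these pairs. In 6 of the 7 the peak covered the start itself, the exception being Usp37, whose peak lay nearer to the listed start of Cnot9. The share of peaks covering the start was not counted over all protein-coding genes. Among Usp genes longer than 10 kb with strand and a peak at exactly 1 end, the peak lay at the upstream end in 7 of 7, against 94.1% (1627 of 1729) of all such protein-coding genes. The end could not be assigned in this way for Usp1, Usp5, Usp39 and Usp9x, and Usp21, shorter than 10 kb, had its peak at the far end.

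**Figure D3:**
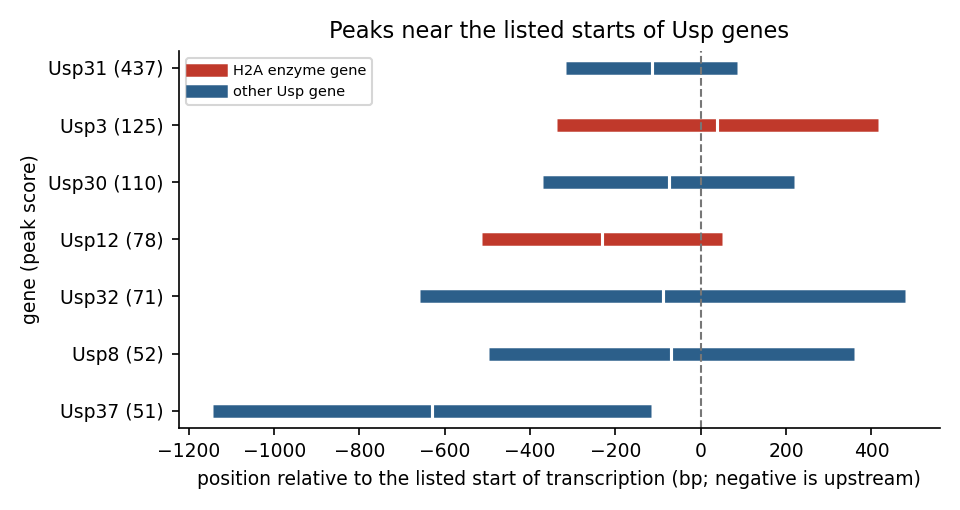
Extent of the 7 peaks within 1 kb of a listed start of a Usp gene (horizontal axis, bp from the start, negative upstream, along the gene's strand), with the peak score beside each gene and a white tick at the midpoint. Genes are ordered by score, with H2A enzymes in red. Every peak except that of Usp37 crosses the dashed line at the start.

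The promoters of Usp3 and Usp12, H2A enzyme genes with a peak over the start, are shown with those of Usp31 and Usp8, which had the highest and the lowest score among peaks covering a start, and with that of Usp16, which had no peak. Each is 300 bases of GRCm38.p6 from RefSeq, reaching 250 bases upstream of the listed start and 50 bases from it on, written 5′ to 3′ along the gene's strand. They lie at chr9:66593066-66593365 (minus strand, Usp3), chr5:146794907-146795206 (minus, Usp12), chr7:121707393-121707692 (minus, Usp31), chr2:126707078-126707377 (plus, Usp8) and chr16:87454735-87455034 (plus, Usp16). Capitals mark matches, on either strand, to any of the 8 short motifs searched: CGGAAG (core of sites of ETS factors), GGGCGG (the GC box bound by Sp1), CACGTG (an E-box), CCAAT (the box bound by NF-Y), AAGATGG (as in sites of YY1), GCGCATG (as in sites of NRF1), TGACGTC (as in cyclic AMP response elements) and TATAAA (the TATA box).
Usp3: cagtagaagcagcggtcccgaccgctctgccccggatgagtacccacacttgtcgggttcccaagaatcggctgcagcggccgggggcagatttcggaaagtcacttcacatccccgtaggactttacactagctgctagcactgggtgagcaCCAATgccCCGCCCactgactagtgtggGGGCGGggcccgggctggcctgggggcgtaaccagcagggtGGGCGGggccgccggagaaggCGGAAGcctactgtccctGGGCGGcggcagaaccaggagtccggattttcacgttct
Usp12: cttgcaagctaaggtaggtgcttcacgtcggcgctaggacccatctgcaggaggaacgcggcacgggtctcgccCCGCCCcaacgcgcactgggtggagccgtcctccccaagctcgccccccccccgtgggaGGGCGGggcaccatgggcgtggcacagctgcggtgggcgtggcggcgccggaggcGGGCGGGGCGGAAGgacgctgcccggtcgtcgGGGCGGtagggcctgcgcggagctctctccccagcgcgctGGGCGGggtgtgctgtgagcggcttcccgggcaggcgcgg
Usp31: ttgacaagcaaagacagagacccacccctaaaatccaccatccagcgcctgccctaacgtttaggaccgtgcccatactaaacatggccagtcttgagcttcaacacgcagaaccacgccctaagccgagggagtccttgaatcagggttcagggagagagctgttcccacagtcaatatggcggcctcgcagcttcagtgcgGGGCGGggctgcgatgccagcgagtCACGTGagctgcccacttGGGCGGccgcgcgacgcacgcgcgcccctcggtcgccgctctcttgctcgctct
Usp8: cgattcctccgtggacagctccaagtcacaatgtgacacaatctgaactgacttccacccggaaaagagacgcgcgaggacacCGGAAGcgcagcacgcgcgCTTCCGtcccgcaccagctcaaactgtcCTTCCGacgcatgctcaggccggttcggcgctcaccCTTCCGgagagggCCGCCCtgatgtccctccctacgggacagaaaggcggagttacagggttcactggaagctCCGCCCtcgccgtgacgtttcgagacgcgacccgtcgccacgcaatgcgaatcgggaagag
Usp16: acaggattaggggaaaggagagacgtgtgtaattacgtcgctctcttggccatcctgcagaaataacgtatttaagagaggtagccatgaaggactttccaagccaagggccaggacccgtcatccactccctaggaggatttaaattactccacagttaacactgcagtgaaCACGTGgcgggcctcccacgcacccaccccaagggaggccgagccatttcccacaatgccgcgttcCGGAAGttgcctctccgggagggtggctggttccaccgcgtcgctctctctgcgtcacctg

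In the Usp12 promoter 6 GGGCGG matches were found, and the CGGAAG match at -54 shares bases with one of them, counted with the listed start as position 1 and no position 0. Usp3 held 4 GGGCGG matches and 1 CGGAAG match at -7. In Usp31 there were 2 GGGCGG matches and an E-box at -22, and no CGGAAG match. In Usp8 4 CGGAAG matches stood between -167 and -84, all but the first on the other strand. The Usp16 promoter held 1 CGGAAG match at -11 and an E-box at -77, and no GGGCGG match, unlike the 4 promoters printed with a peak.

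Over the 44 promoters listed for Usp genes (2 of them for Usp6nl), GGGCGG was found in 7 of the 7 with a peak within 1 kb of the start, against 21 of the 37 without. The share was 62.9% of all promoters with a peak, against 43.6% of those without, and 46.2% of all 21263 promoters of protein-coding genes. CGGAAG was found in 5 of 7 Usp promoters with a peak, against 9 of 37 without. Over all protein-coding genes the shares were 42.2% with a peak and 17.8% without, and 21.1% of all promoters. Both motifs were thus more frequent in promoters with a peak, in the family as over all genes, and no test was made. CACGTG was found in 2 of 7 Usp promoters with a peak, against 3 of 37 without (over all genes 11.3% with and 7.29% without, and 7.84% of all promoters). GCGCATG was found in 1 of 7, against 1 of 37 (over all genes 7.56% with and 4.37% without, and 4.80% of all promoters). CCAAT was found in 1 of 7, against 13 of 37 (over all genes 37.2% with and 38.3% without, and 38.2% of all promoters). The motif AAGATGG was found in none of the 7, against 5 of 37, while over all genes it was found in 9.08% with a peak and 5.79% without (6.24% of all promoters). The motif TGACGTC was likewise absent from the 7, against 2 of 37, while over all genes the shares were 6.22% with and 3.47% without (3.84% of all promoters). The TATA box was absent from the 7, against 5 of 37, and over all genes the shares were 6.70% with and 13.5% without (12.6% of all promoters). With 7 promoters, counts of 0 or 1 show no direction. A match is a run of letters and not a measured binding site.

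The CpG content of the promoters moved with the presence of a peak, and its part in the motif counts was not tested. The 7 Usp promoters with a peak held 61.7 to 75.7% G + C (median 62.7%), against 41.3 to 86.0% (median 64.3%) for the 37 without, so the family's G + C ranges overlapped. Over all protein-coding genes the G + C medians were 60.7% with a peak and 55.3% without. The ratio of observed to expected CpG dinucleotides, in which the expectation is the product of the C and G counts over the length, had a median of 0.89 (0.70 to 1.19) with a peak, against 0.72 (0 to 1.16) without. Over all protein-coding genes this median was 0.82 for the 2895 promoters with a peak, against 0.48 for the 18368 without. None of the 7 Usp promoters with a peak fell below a ratio of 0.6, against 12 of the 37 without, among them the 4 listed Usp17l promoters. Over all protein-coding genes the counts below this ratio were 456 of 2895 with a peak and 10670 of 18368 without. The Usp promoters without a peak thus included both CpG-poor promoters and promoters as rich in CpG as those with a peak. That of Usp16 had 56.3% G + C and a ratio of 0.72.

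**Figure D4:**
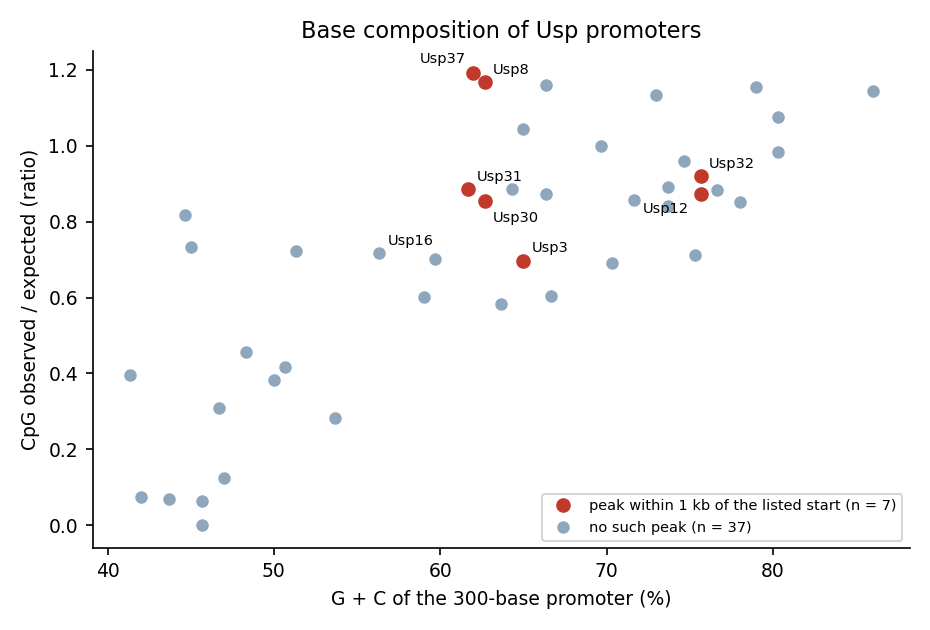
G + C content (horizontal axis, %) and observed to expected CpG ratio (vertical axis) of the 44 promoters listed for Usp genes, each 300 bases long. Red points are the 7 promoters with a peak within 1 kb of the listed start and grey-blue points the 37 without. All red points lie at or above a ratio of 0.697, where many promoters without a peak also lie.

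No peak was listed for 41 of the 56 genes. Beside Usp16, Usp22, Usp44 and Usp46 these were Usp4, Usp11 and Usp15, relatives with roles in splicing and signalling, Usp7 and its relative Usp47, Usp25 and Usp28, Usp20 and Usp33, Usp36 and Usp42, Usp26, Usp53, Usp10, Usp13, Usp24, Usp34, Usp35, Usp38, Usp40, Usp43, Usp45, Usp48, Usp49 and Usp50. They also included the proteasome-bound enzyme Usp14, the enzyme Usp18, which removes the ubiquitin-like protein ISG15, and Usp19, which is anchored in the endoplasmic reticulum. The remainder were Usp6nl, Usp27x, Usp51, Usp9y and the 5 Usp17l genes, which include the cytokine-inducible Dub enzymes of mouse blood cells. The near-identical Usp17l copies make the placement of reads there uncertain.

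The 41 genes lay at a median of 78.9 kb from their nearest peak (2.72 to 2577 kb), against 124 kb for the 17969 protein-coding genes without a peak. Of these Usp genes 3 were within 10 kb, and 17 (41.5%) were more than 100 kb away, against 54.9% of the 17969. The nearest was Usp33, whose closest peak had a score of 194 and lay at an end of Zzz3, followed by Usp4, 6.63 kb from a peak at ends of Rhoa and Gpx1, and Usp45. The farthest were Usp9y on chromosome Y and, on the autosomes, Usp7, which acts on MDM2 and p53 and had no peak within 2028 kb.

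**Figure D5:**
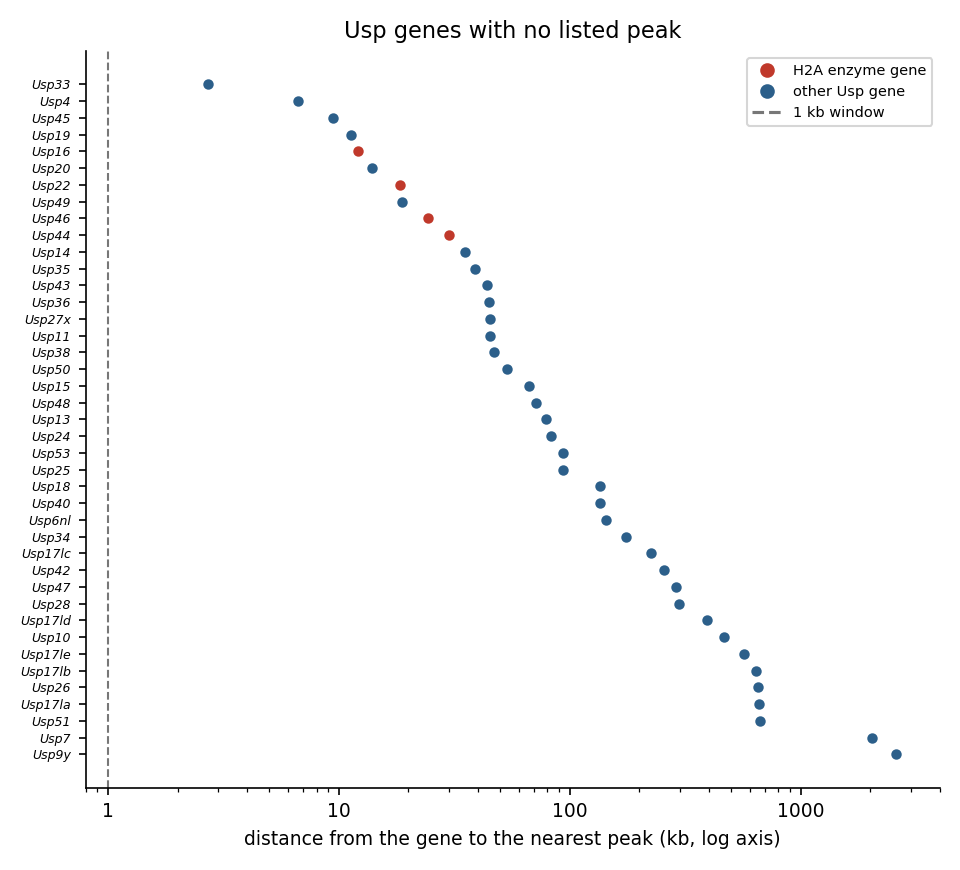
Distance from each of the 41 Usp genes without a peak to the nearest listed peak (horizontal axis, kb, log scale), from Usp33 at 2.72 kb to Usp9y at 2577 kb, with H2A enzymes in red. The dashed line marks the 1 kb window. The 4 H2A enzyme genes without a peak, Usp16, Usp22, Usp46 and Usp44, stand between 12.1 and 30.0 kb.

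Deubiquitinase genes outside the Usp names were counted in the same way, in a list that also holds Uspl1 and Cops5, genes of related proteases. A gene-end peak was listed for 10 of 37 (27.0%, interval 13.8 to 44.1%), against 13.9% of all protein-coding genes, which lies at the lower bound of the interval. These were Uspl1, a SUMO protease gene (score 178), Yod1 of the ovarian tumour family (132), the proteasome-bound Uchl5 (119), Josd2 (109.7), Uchl3 (75.0), the NF-κB regulator Tnfaip3 (74.7), the signalosome subunit gene Cops5 (55.4), Mysm1 (53.8), Zup1 (53.4) and the proteasome subunit gene Psmd14 (51.2). The peaks at Uchl5, Josd2 and Cops5 also reached ends of Ro60, Aspdh and Cspp1, and that at Mysm1 reached the lncRNA gene Gm12694. Mysm1 is another H2A enzyme with a known role in mouse blood stem cells, and its score was close to the lowest listed. Its peak midpoint lay 13 bp downstream of the listed start. Bap1, also an H2A enzyme gene, and Brcc3 had no peak at an end or inside. The share of this list, of which Mindy2 and Mindy3 held peaks only inside, has an interval that overlaps that of the Usp genes (11.6 to 34.4%).

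Of 32 genes for writers of H2A and H2B ubiquitin, partners of the Usp enzymes and ubiquitin itself, 8 carried a gene-end peak (25%, interval 11.5 to 43.4%), against 13.9% of all protein-coding genes, which lies within the interval. Among the partners of Usp22 in SAGA, Atxn7l2 had a score of 408, on a peak shared with Sypl2, and Eny2 1 of 58.2, on a peak shared with Nudcd1, while Atxn7, Atxn7l1 and Atxn7l3 had none. Wdr48 and Wdr20, cofactors of Usp12 and Usp46, had none. The ubiquitin genes Ubb (56.3) and Rps27a (75.0, shared with Clhc1) carried a peak, and the ubiquitin-activating enzyme gene Uba1 had a score of 103. Among Polycomb subunits that write the mark, Pcgf1 (58.7) and Pcgf2 (83.4) carried a peak, while Rnf2, Ring1 and Bmi1 did not. The Pcgf1 peak covered no annotated end of that gene, and its midpoint lay 1.06 kb from the nearer one. The Pcgf2 peak also reached Psmb3 and the tRNA gene n-TNgtt8. Its midpoint lay 3.22 kb upstream of the listed start of Pcgf2 and 565.5 bp from that of Psmb3. The peak cannot be assigned to Pcgf2 rather than Psmb3 from the list. Bard1 and Ube2b held a peak only inside the gene. The midpoint of the Ube2b peak lay 18.5 bp upstream of its listed start, and the peak also reached an end of Cdkl3.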

How the data were processed

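The data were 1 anti-Usp16 and 1 IgG ChIP library, and the deposited file is a list of peaks. The authors called the peaks with MACS in Galaxy, per the file headers. Bowtie, Picard and the build mm10 are named, without versions, per the submitters' processing notes. For MACS, its version, its settings and whether IgG served as control were not given in the sources used here. In the deposited list the score is the authors' value, used only to describe and rank peaks within the list.

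Positions were made 1-based, and genes came from a RefSeq table of assembly GRCm38.p6, which is mm10. Starts and sequences came from the RefSeq promoter table of the same build. All 56 members and every gene of the other lists matched by symbol, and 43 members had a listed start. Overlaps were computed with Python 3.11.15, numpy 2.4.6, pandas 2.3.3 and scipy 1.17.1, and were tested on simulated peaks. Members, lists and motifs were chosen with earlier results of these data known. No set test was made. Named were the H2A enzymes, all members, and genes of the other lists with a gene-end peak, of which 1 is not reported here. Genes of those lists with none or only an inside peak were named after their values were seen. Promoters were printed for 5 genes.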

Additional observations from a re-analysis of the deposited data

How the results depend on the processing

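Counts were repeated with a window of 500 bp or 5 kb, the peak midpoint or at least 50% of the peak in place of any overlap, peaks merged within 1 kb, peaks at or above the median score, peaks at 1 protein-coding gene only, and without chromosomes X and Y. The Usp counts were also repeated without the Usp17l copies and Usp6nl. Of 51 values 47 stayed within 1.5 times the reported count or, for the median score, within its binomial interval. This rule compares raw counts, although some settings also changed the share over all protein-coding genes. The lowest Usp count counted as unchanged, 8, lay exactly at the limit. Leaving out the Usp17l copies and Usp6nl could not lower the Usp counts, because these genes had no peak. The number of Usp genes with a gene-end peak ranged from 8 (14.3%, against 7.99% of all protein-coding genes, at or above the median score) to 14 (25%, against 18.3%, with the window of 5 kb, which added Usp33 and Usp54). With peaks at or above the median score the list of other deubiquitinase genes had 6 with a gene-end peak. The list of writers, partners and ubiquitin genes had 5, where the share of all protein-coding genes was 7.99% in place of 13.9%. With peaks at 1 protein-coding gene only the list of writers, partners and ubiquitin genes had 4, where that share was 8.42%. Fewer peaks enter in both settings. With gene ends replaced by listed starts, chosen after seeing the data, the count was 7 Usp genes of 43 with a listed start. Leaving out a replicate was not run with 1 library per antibody. No paired analysis was possible because there are no replicates. Unknown depth and the score floor of 50 limit every absence.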
